A study of Mus musculus with 3 samples.

Results

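In mammalian genomes many protein-coding genes are arranged head to head, with their transcription start sites close together on opposite strands, so that 1 stretch of promoter DNA serves both genes. The peaks described here are DNase I hypersensitive sites at such divergent promoters in MEL cells, an established mouse line of erythroleukemia cells that resemble early red cell precursors. A pair was formed by protein-coding genes of the GENCODE M21 basic annotation on chromosomes 1 to 19, lying on opposite strands with their starts facing away from each other and at most 1000 bp apart. This gave 734 pairs with 1448 distinct genes, 6.96% of the 20807 protein-coding genes on those chromosomes. A member was a peak of the biological replicate 2 list that was centred between the starts or within 300 bp of either start and that overlapped a replicate 1 peak by at least 1 bp. There were 791 members among the 89046 replicate 2 peaks of the whole series, and 20 of them served more than 1 pair, giving 811 combinations of a peak with a pair. Another 64 replicate 2 peaks lay in these windows without a replicate 1 peak and were not members.

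The study measured chromatin accessibility by DNase-seq in 1 condition, with no treatment named in the labels, with 3 libraries from 2 biological replicates. Replicate 1 had 1 list of 281600 peaks called on 2 merged libraries, and replicate 2 had 1 list of 89046 peaks called on 1 library. Since each biological replicate gave 1 list, samples could not be tested against each other, and the 95% intervals below cover counting error over promoters or peaks only. The number of reads behind each list is unknown, and in a bulk population a site open in fewer cells cannot be told apart from a site less open in each cell. The marker lists at gene starts differed in the direction of the label. A shared peak lay within 300 bp of the start in 32 of 50 erythroid genes (64%) and in 3 of 40 genes of other tissues (7.50%). Among single-gene starts, defined below, the share was 36.6%, and among the CpG-rich ones it was 65.1%, near the erythroid share. Each peak carries a deposited score between 1 and 150, whose meaning the sources used here do not give. Scores describe and rank peaks within a list and do not compare the lists, because the replicate 1 score was above the replicate 2 score at all 791 members.

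Divergent promoters are known as CpG-rich, broadly used promoters. They usually lack a TATA box, the AT-rich element that fixes the start of many tissue-specific and histone genes, and hold sites for general activators instead. The best known are ETS-family factors such as GABPA, the trimeric CCAAT-binding factor NF-Y, and NRF1, an activator of genes for mitochondrial proteins. Genes for DNA repair, for mitochondrial proteins and for histones are often arranged in this way, and the paired H2A and H2B genes of the histone clusters are a textbook case in which both products are needed in equal amounts during S phase.

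The bases strictly between the annotated starts of 8 pairs are shown because their motif counts and the scores of their peaks are described below. They are taken from the GRCm38 (mm10) reference, plus strand, and the minus-strand gene of each pair starts just left of the first base. Capitals mark CCAAT on either strand, TATAAA on either strand, the ETS consensus CCGGAAG, the GC box GGGGCGG and the consensus of ZNF143. The histone pairs and Col4a4/Col4a3 were chosen after their values were seen. The first is Hist2h2ac/Hist2h2be (chr3:96220881-96221118), which held the highest-scoring member of all. Hist1h2ac/Hist1h2bc (chr13:23683949-23684198) and Hist1h2bf/Hist1h2ad (chr13:23574197-23574380) belong to the large histone cluster. Hist1h2ba/Hist1h2aa (the middle 300 bp, chr13:23934160-23934459) encodes testis histone variants and held the lowest-scoring member. Mrps12/Sars2 (chr7:28741821-28741991) joins a mitochondrial ribosomal protein gene with the mitochondrial seryl-tRNA synthetase gene. Aimp2/Pms2 (chr5:143909848-143909963) and Hscb/Chek2 (chr5:110839778-110839978) each hold a DNA repair or checkpoint gene. Col4a4/Col4a3 (chr1:82586850-82586920), the type IV collagen pair of the kidney filter, had no peak in either list.
Hist2h2ac/Hist2h2be: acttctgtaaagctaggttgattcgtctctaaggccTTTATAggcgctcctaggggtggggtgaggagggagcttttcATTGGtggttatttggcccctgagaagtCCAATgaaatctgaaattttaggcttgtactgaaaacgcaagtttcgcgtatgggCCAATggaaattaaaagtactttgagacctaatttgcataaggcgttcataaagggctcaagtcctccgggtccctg
Hist1h2ac/Hist1h2bc: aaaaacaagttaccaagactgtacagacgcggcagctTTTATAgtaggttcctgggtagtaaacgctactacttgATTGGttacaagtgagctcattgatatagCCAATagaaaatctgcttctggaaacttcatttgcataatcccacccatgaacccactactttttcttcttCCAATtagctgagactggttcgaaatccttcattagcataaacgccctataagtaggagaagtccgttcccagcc
Hist1h2bf/Hist1h2ad: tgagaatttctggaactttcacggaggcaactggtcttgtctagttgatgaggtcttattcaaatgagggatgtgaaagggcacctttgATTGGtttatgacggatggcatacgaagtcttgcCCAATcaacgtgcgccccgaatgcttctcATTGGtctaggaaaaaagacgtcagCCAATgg
Hist1h2ba/Hist1h2aa: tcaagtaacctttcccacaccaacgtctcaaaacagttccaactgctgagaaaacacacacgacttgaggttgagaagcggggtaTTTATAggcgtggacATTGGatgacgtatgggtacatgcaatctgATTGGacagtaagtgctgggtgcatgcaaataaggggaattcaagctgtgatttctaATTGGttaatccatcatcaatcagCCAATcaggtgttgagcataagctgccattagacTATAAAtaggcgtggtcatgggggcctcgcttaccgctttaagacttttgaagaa
Mrps12/Sars2: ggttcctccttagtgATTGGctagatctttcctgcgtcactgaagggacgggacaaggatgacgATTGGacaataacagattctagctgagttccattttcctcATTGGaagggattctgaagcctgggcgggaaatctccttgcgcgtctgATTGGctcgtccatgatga
Aimp2/Pms2: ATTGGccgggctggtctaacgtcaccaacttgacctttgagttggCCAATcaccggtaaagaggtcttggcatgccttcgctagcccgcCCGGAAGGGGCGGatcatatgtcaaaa
Hscb/Chek2: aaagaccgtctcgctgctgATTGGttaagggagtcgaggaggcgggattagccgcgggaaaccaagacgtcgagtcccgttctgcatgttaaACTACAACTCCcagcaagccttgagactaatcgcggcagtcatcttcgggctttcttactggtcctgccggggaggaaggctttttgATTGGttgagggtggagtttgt
Col4a4/Col4a3: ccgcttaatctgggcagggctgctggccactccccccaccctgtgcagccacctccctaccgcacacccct

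In these 8 stretches the Mrps12/Sars2 promoter carried 4 CCAAT matches and Aimp2/Pms2 carried 2 CCAAT matches, 1 ETS match and 1 GC box that shares a base with the ETS match. Hscb/Chek2 carried 2 CCAAT matches and 1 ZNF143 match. Col4a4/Col4a3 held none of these letters, which says nothing of the factors themselves.

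Most divergent promoters were accessible in MEL cells. At least 1 member peak was found at 656 of 734 pairs (89.4%, Wilson 95% interval 86.9 to 91.4%), against 6633 of 18126 single-gene starts with a peak found by the same rule (36.6%, 35.9 to 37.3%), a ratio of 2.44. A single-gene start had no other protein-coding start within 1000 bp on either strand. In the lists taken separately, the shares were 89.6% of pairs and 37.1% of single-gene starts in replicate 2, and 92.2% of pairs and 44.8% of single-gene starts in replicate 1. A pair has 2 starts and therefore a wider window than a single gene. Taken start by start with the window used for single genes, 1245 of the 1448 pair genes had a shared peak (86.0%, 84.1 to 87.7%), still more than 2 times the share of single-gene starts. This count does not separate the genes of a pair, because 1 peak between close starts counts for both. Its interval treats such linked starts as separate counts and is therefore too narrow.

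With pairs classed at their midpoint, the difference was present within each class of CpG content. Promoters were classed by the observed over expected frequency of CpG in the 300 bp around the midpoint of a pair or around a single start. CpG-rich promoters, with a value over 0.65, made up 82.0% of pairs and 42.7% of single-gene starts. Within the CpG-rich class, 563 of 602 pairs (93.5%, 91.3 to 95.2%) and 5031 of 7732 single-gene starts (65.1%, 64.0 to 66.1%) had a shared peak. In the intermediate class, between 0.35 and 0.65, the shares were 85.4% of 89 pairs and 29.8% of 3389 single-gene starts. Among CpG-poor promoters, under 0.35, they were 39.5% of 43 pairs (26.4 to 54.4%) and 8.47% of 7005 single-gene starts. With this classing, the intervals of pairs and single-gene starts did not overlap in any class. At pairs set far apart, however, the midpoint lies away from both starts, so the classes of pairs and single genes are not fully alike. Start by start, the CpG-poor intervals overlapped, as given below.

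**Figure D1:**
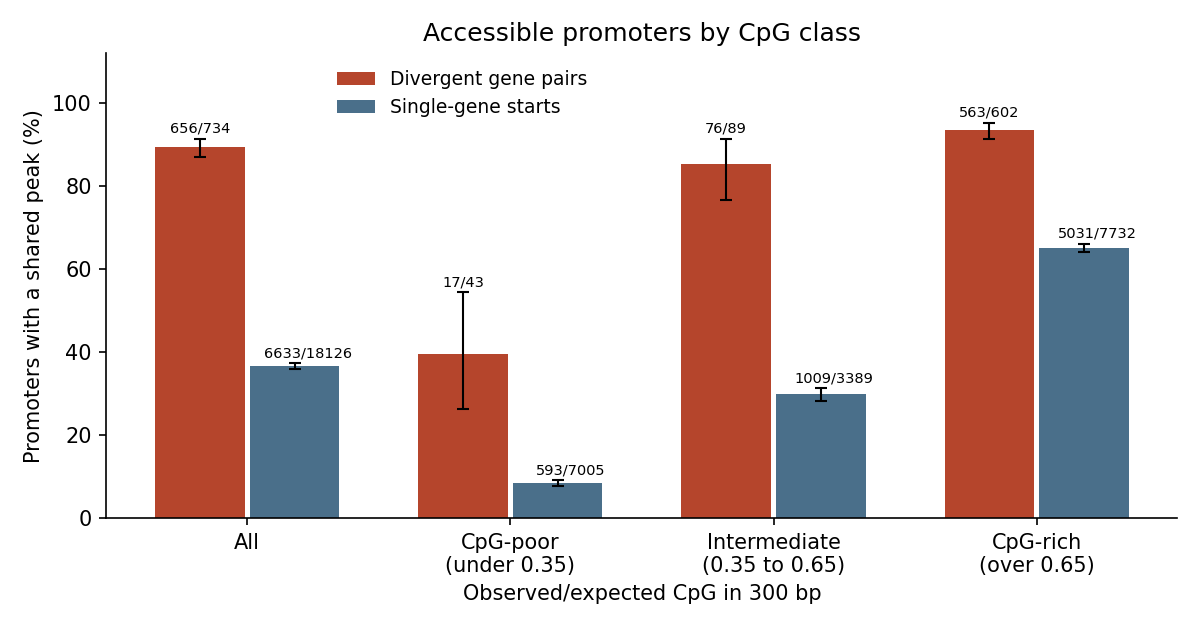
Share of divergent gene pairs (left bar of each couple) and of single-gene starts (right bar) with a shared peak, in percent, for all promoters and by observed over expected CpG. CpG was taken around the midpoint of a pair and around the start of a single gene. Bars carry Wilson 95% intervals and the counts behind them, and pairs stood above single-gene starts in each class, 93.5% against 65.1% among CpG-rich promoters.

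Start by start the CpG-rich and intermediate classes gave the same order. A shared peak lay at 91.2% of 1216 CpG-rich pair starts and at 72.7% of 176 intermediate pair starts, against the 65.1% and 29.8% of single-gene starts above. At the 56 CpG-poor pair starts the share was 14.3% (7.42 to 25.7%), against 8.47% of single-gene starts (7.84 to 9.14%), and these intervals overlapped.

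Member peaks also scored somewhat higher than peaks at single-gene starts. In replicate 2 the median score was 66.0 for members (quartiles 49 and 84, range 10 to 134) and 58.0 for the 7214 single-start peaks (quartiles 41 and 76, range 7 to 135). In replicate 1 the overlapping peaks had medians of 142 for members and 139 for single-start peaks, close to the upper limit of 150. Of the members, 60.8% (57.4 to 64.2%) lay above the replicate 2 median of single-start peaks and 58.7% (55.2 to 62.0%) above the replicate 1 median. The distributions overlapped over nearly their whole range, so the score of a peak did not tell the kinds of promoter apart. Both stood well above the median of 33.0 for all 81102 shared peaks on these chromosomes.

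**Figure D2:**
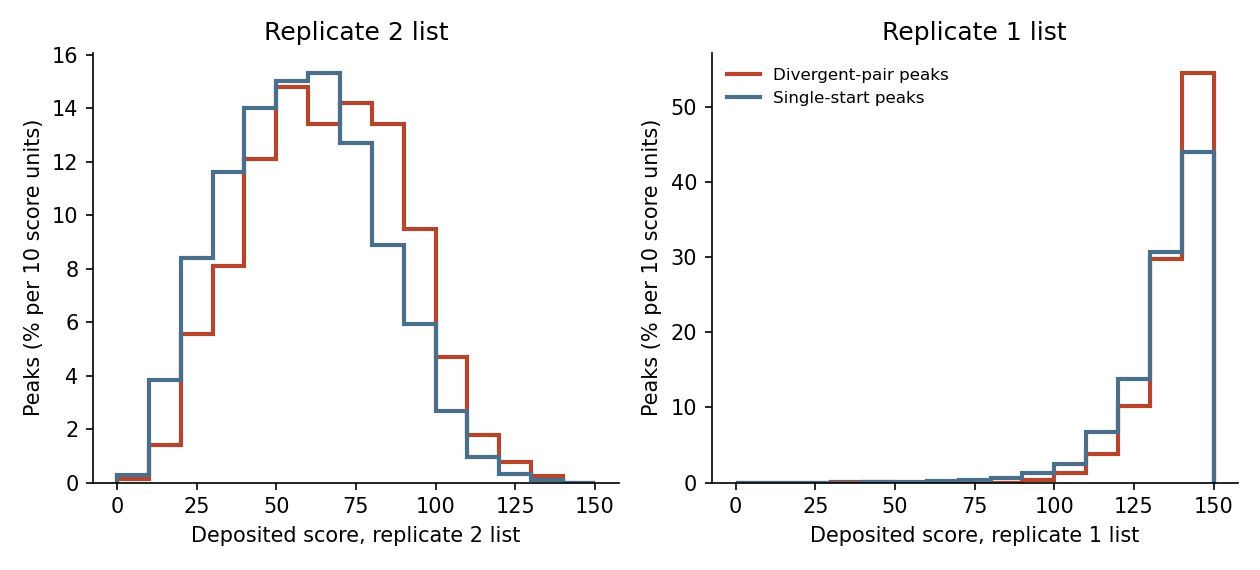
Distribution of deposited scores in steps of 10 for the 791 divergent-pair peaks and the 7214 single-start peaks, in percent of peaks, in the replicate 2 list (left) and the replicate 1 list (right). The divergent-pair curve was shifted to higher scores, with medians of 66.0 against 58.0 in replicate 2 and 142 against 139 in replicate 1.

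The score difference was seen within CpG-rich sequence. Members were more often CpG-rich than single-start peaks, 85.8% against 72.6%, with a median observed over expected CpG of 0.849 against 0.790, while the median GC content was 62.0% in both. Among CpG-rich peaks the median replicate 2 score was 67.0 for 679 members and 60.0 for 5235 single-start peaks, and 59.2% of these members (55.5 to 62.8%) lay above the single-start median. Among intermediate peaks the medians were 64.5 for 104 members and 57.0 for 1320 single-start peaks, and the share above was 53.8% (44.3 to 63.1%), an interval that includes 50%. Only 8 members were CpG-poor, with a median of 36.5, against 42.0 for 659 single-start peaks.

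Most pairs had 1 peak placed over the space between the genes. The distance between starts had a median of 128 bp (quartiles 66.2 and 240, range 1 to 987 bp), which is less than the 150 bp width of a peak. A single member was found at 518 pairs, 2 members at 122 pairs, 3 at 15 pairs and 4 at 1 pair. Of the pair and peak combinations, 482 of 811 (59.4%, 56.0 to 62.8%) were centred between the starts, and the median distance to the nearer start was 44.0 bp. With the replicate 1 list alone the share centred between the starts was 48.8% (45.7 to 51.9%). Among the 466 pairs with 1 member and at most 300 bp between the starts, 81.5% of peaks (77.8 to 84.8%) were centred within 75 bp of the midpoint. At single-gene starts 72.7% of peaks were centred upstream of the start, with a median of 42.0 bp upstream. All members started on the same step of 20 bp, so smaller offsets carry no information.

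Lone peaks lay on both sides of the midpoint. At the 518 pairs with 1 member, the peak lay on the side of the minus-strand gene at 234 and of the plus-strand gene at 284. A peak that served more than 1 pair was counted at each of them. The median distance of these peaks from the midpoint was 33.0 bp.

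Pairs set farther apart more often had separate peaks. Among pairs with a member, 21.0% (18.1 to 24.3%) had at least 2 peaks, against 8.38% of single-gene starts with a peak (7.74 to 9.07%). By distance this share was 11.7% for pairs 1 to 100 bp apart, 14.5% at 101 to 200 bp, 21.6% at 201 to 300 bp, 50% at 301 to 500 bp and 58.5% at 501 to 1000 bp. The searched window is longer for pairs farther apart, which by itself leaves room for more peaks. Among the 113 pairs over 300 bp apart with a member, 37 (32.7%) had separate peaks within 150 bp of each start. In these 37 pairs the higher-scoring peak had a median score of 79.0 and the lower-scoring peak 48.0, an order set by sorting the peaks.

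**Figure D3:**
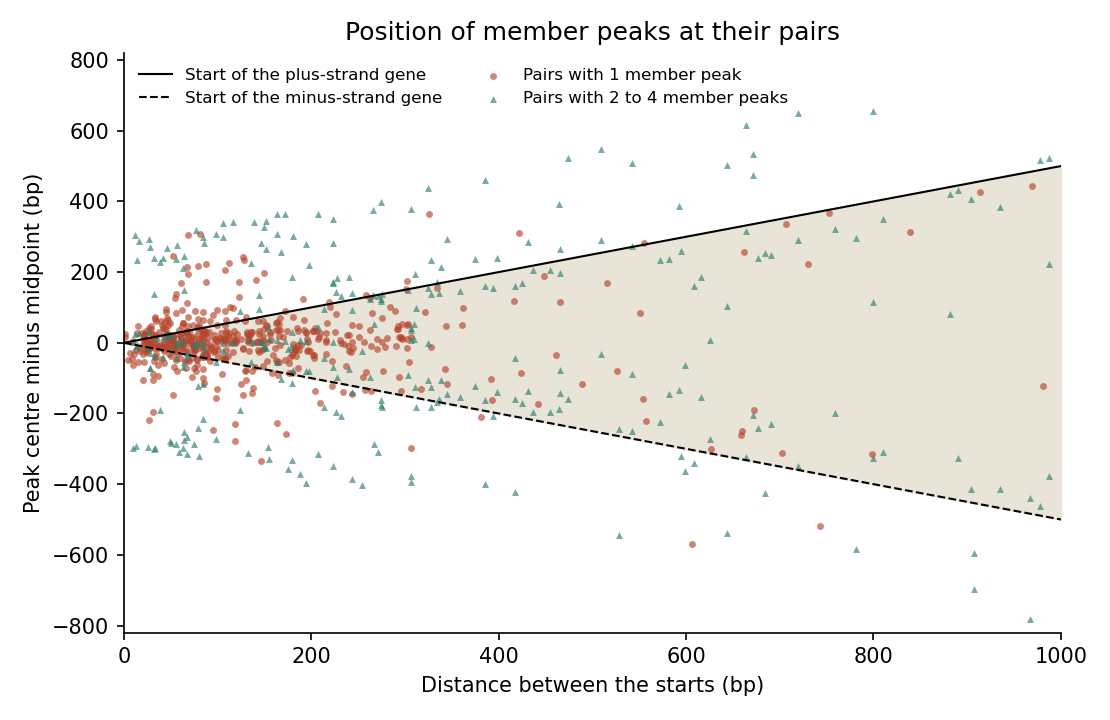
Position of each of 811 peak and pair combinations: the distance between the starts in bp (horizontal) against the peak centre minus the midpoint in bp (vertical), with lines at the start of each gene and shading between them. Peaks of pairs with 1 member clustered near the midpoint at short distances, while pairs with 2 to 4 members (triangles) had peaks near the lines or outside them. Pairs that occur more than once under the same name, such as Hdlbp/Sept2 and Arl16/Hgs, are also drawn as triangles although each has 1 member.

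Several pairs illustrate the separate peaks. Mcm4/Prkdc joins a subunit of the replicative helicase with the catalytic subunit of the DNA-dependent protein kinase, and its starts are 466 bp apart. It had 2 members, scoring 90 at 91 bp from the Mcm4 start and 66 at 35 bp from the Prkdc start in replicate 2, and 146 and 140 in replicate 1. Psme2/Rnf31, a proteasome activator gene and a ubiquitin ligase gene 595 bp apart, had peaks of 100 and 98 in replicate 2 and of 148 and 149 in replicate 1, 22 and 37 bp from their starts. These were nearly equal, unlike those of Urod/Hectd3, 904 bp apart, with 63 at the heme synthesis gene Urod and 35 at Hectd3 in replicate 2, and 144 and 126 in replicate 1. Zfp672/Sh3bp5l had the most members, with replicate 2 scores of 28, 44, 74 and 47 from left to right. Its 2 inner peaks lay at 32 and 33 bp from the starts, and the outer peaks lay inside the genes.

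Hotspots, the broader regions of raised cutting in the deposited lists, usually covered both starts of a pair, most often where the starts were close. Spans of equal length at single-gene starts were not compared. Both starts lay in 1 hotspot at 78.7% of pairs in replicate 2 (75.6 to 81.6%) and at 88.0% in replicate 1 (85.5 to 90.2%). In replicate 2 the share was 89.9% for pairs 1 to 100 bp apart, 81.5% at 101 to 200 bp, 78.1% at 201 to 300 bp, 70.3% at 301 to 500 bp and 29.4% at 501 to 1000 bp. In replicate 1 it was 94.1% at 1 to 100 bp and 64.7% at 501 to 1000 bp.

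The closest pairs did not have the highest scores. The median of the highest replicate 2 score per pair was 64 at 1 to 100 bp, 78 at 101 to 200 bp, 82.5 at 201 to 300 bp, 79 at 301 to 500 bp and 75 at 501 to 1000 bp, against 61 for single-gene starts with a peak. Across the 656 pairs with a member, the distance and the highest score had a Spearman correlation of 0.29 and a Pearson correlation of 0.14, given as a description over promoters that share 1 list. The highest of several peaks was taken at pairs with more than 1 member, which were commoner among the distant pairs. The share of pairs with a member was lowest at 501 to 1000 bp, 77.9% of 68 pairs. The median observed over expected CpG around the midpoint was 0.499 there, against 0.909 at 1 to 100 bp. In the distant pairs the midpoint lies farther from both starts.

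On either side of the limits of the rule the values were as follows. Of the 10 pairs with starts 901 to 1000 bp apart, 9 had a shared peak, with a median highest replicate 2 score of 63.0, and of 11 pairs just outside, 1001 to 1100 bp apart, 9 had a shared peak, with a median of 73.0. Peaks centred 251 to 300 bp outside the starts had a median score of 42.0 over 47 peaks, and those 301 to 350 bp outside a median of 40.0 over 37 peaks.

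Motif letters differed modestly between members and single-start peaks. Matches to 15 consensus motifs were counted on either strand in the 150 bp around each peak centre, and a match is a description of the sequence. The ETS consensus CCGGAAG was found in 21.1% of members and 14.9% of single-start peaks, a ratio of 1.42 (95% interval 1.22 to 1.64), and in 3.45% of all shared peaks. CCAAT was found in 36% of members and 31.2% of single-start peaks, a ratio of 1.15 (1.05 to 1.27), and in 19.2% of all shared peaks. The NRF1 consensus was found in 2.40% and 1.55%, with a ratio of 1.55 whose interval of 0.957 to 2.50 includes 1. Among CpG-rich peaks alone the ETS ratio was 1.28 (1.10 to 1.48) and the CCAAT ratio 1.12 (1.00 to 1.25). In the intermediate class the ETS consensus was found in 8.65% of members and 8.94% of single-start peaks, a ratio of 0.968 (0.507 to 1.85), and the CCAAT ratio was 1.18 (0.921 to 1.52). With motifs counted in 300 bp the CCAAT ratio was 1.09, and its interval of 0.999 to 1.18 included 1.

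TATA and GATA letters were rarer in members over all peaks, but not under every setting. TATAAA was found in 7 of 791 members (0.885%) and in 2.40% of single-start peaks, a ratio of 0.369 (0.174 to 0.783), beside 4.95% of all shared peaks. The ratio was 0.419 among CpG-rich peaks, with an interval of 0.171 to 1.03, and 0.782 (0.477 to 1.28) with pairs up to 2000 bp apart. AGATAA, the consensus of the GATA factors that direct red cell genes, was found in 1.90% of members, 3.31% of single-start peaks and 15.9% of all shared peaks. The ratio of members to single-start peaks was 0.572 (0.341 to 0.959), and it turned to 1.11 (0.626 to 1.98) among CpG-rich peaks. It was 0.836 (0.557 to 1.26) with pairs up to 2000 bp apart, and its interval also included 1 with a 150 bp window, with the higher-scoring 50% of peaks, with the highest-scoring peak of each promoter and with promoters at least 90% unique. The GC box GGGGCGG, bound by SP and KLF factors, was found in 29.0% of members and 30.9% of single-start peaks, and among CpG-rich peaks its ratio was 0.850 (0.754 to 0.959). The ratio intervals of the other motifs included 1 over all peaks. AANATGGCG of YY1 was found in 3.29% of members and 2.76% of single-start peaks, the ZNF143 consensus in 2.91% and 2.19%, the cyclic AMP element TGACGTCA in 3.41% and 3.20%, and the E-box CACGTG in 7.59% and 7.79%. CCACACCC of KLF1 was found in 1.77% of members and 2.56% of single-start peaks, TGANTCA of AP-1 in 2.15% and 2.54%, TGTGGTTT of RUNX in 0.253% and 0.749%, the CTCF consensus in 0.759% and 1.58%, and the NF-E2 consensus, which contains an AP-1 match, in 0.126% and 0.0554%.

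**Figure D4:**
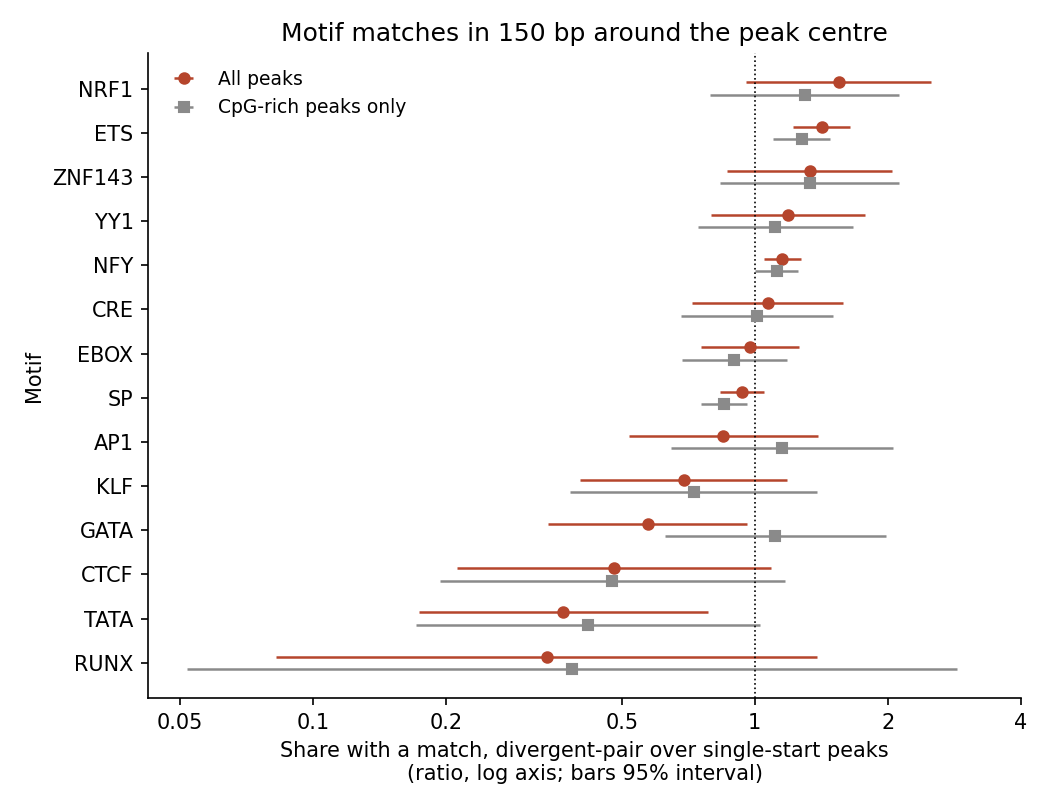
Ratio of the share of divergent-pair peaks with a motif match to that of single-start peaks (log axis, with 95% intervals), for all peaks (circles) and CpG-rich peaks only (squares), motifs down the page. ETS and CCAAT (NFY) stood above 1 and TATA and GATA below 1 over all peaks, and GATA moved to 1.11 among CpG-rich peaks; NF-E2, with 1 match in members, is not drawn.

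Histone pairs had the highest median score of the gene lists compared, although their highest replicate 2 scores ran from 10 to 134. In all, 27 of 67 histone genes (40.3%) lay in pairs, against 6.96% of all genes. Of their 14 pairs 12 had a member (85.7%, 60.1 to 96.0%, near the 89.4% of all pairs). The median of the highest replicate 2 score was 99.0 over these 12 pairs, against 72.0 over all pairs with a member and 81.0 over the 197 other pairs with a member that were 176 to 660 bp apart, the range of the pairs with histone genes on both sides. Hist2h2ac/Hist2h2be scored 134 in replicate 2 and 150 in replicate 1, and its neighbour Bola1/Hist2h2ab, which joins a mitochondrial protein gene with an H2A gene, scored 116 and 149. In the large cluster on chromosome 13, Hist1h2ac/Hist1h2bc scored 113 and 148, and Hist1h2ah/Hist1h2bk scored 108 and 149. The other 7 replication-dependent pairs with a member ran from 89 at Hist1h2bl/Hist1h2ai to 102 at Hist1h2bh/Hist1h3f in replicate 2. The testis pair Hist1h2ba/Hist1h2aa scored 10 and 40, and its peak was centred 145 bp outside the starts, on the Hist1h2ba side. The pairs Hist1h2bq/Hist1h2ao and Hist1h2ap/Hist1h2br lacked peaks in both lists. In their windows 0% of the 32 bp words were found at a single place in the genome. Pairs beyond the highest 3 of this family were named after their values were seen.

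The histone pairs lay in peak-rich surroundings. Around the 13 pairs with histone genes on both sides, the number of replicate 2 peaks within 500 kb was between 85 and 262, with a median of 108, against a median of 75 around all pairs. The median score of these peaks was between 41.5 and 57.0 around the histone pairs, against a median of 33.5 around all pairs. In the windows of these 13 pairs, between 0% and 90.3% of the 32 bp words were unique, with the highest share at the testis pair. Their 11 members had a median GC content of 44.0%, against 62.0% over all members. Both starts lay in 1 hotspot at only 2 of the 13 pairs in replicate 1 and 1 in replicate 2, in contrast to the 88.0% and 78.7% of all pairs. These 13 pairs are 176 to 660 bp apart. Among all pairs the replicate 2 share was 81.5% at 101 to 200 bp, 78.1% at 201 to 300 bp, 70.3% at 301 to 500 bp and 29.4% at 501 to 1000 bp. The parts of repeated sequence and of distance in the values of the histone pairs were not tested.

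The sequences printed above show the arrangement of the histone promoters. All 13 pairs with histone genes on both sides held between 2 and 5 CCAAT matches between the starts, while at least 2 were found at 138 of the 721 other pairs. Over the range of distances of the histone pairs, 176 to 660 bp, 76 of 217 other pairs held at least 2. TATAAA was found between the starts of 8 of the 13 histone pairs and of 21 of the 721 other pairs. In a window of 300 bp around the midpoint, TATAAA was found at 69.2% of histone pairs and 3.33% of the others, and ETS at 0 of 13 histone pairs and 28.8% of the others. The testis pair, whose member scored lowest, held 4 CCAAT and 2 TATAAA matches, so these letters alone did not separate it from the pairs with high scores.

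**Figure D5:**
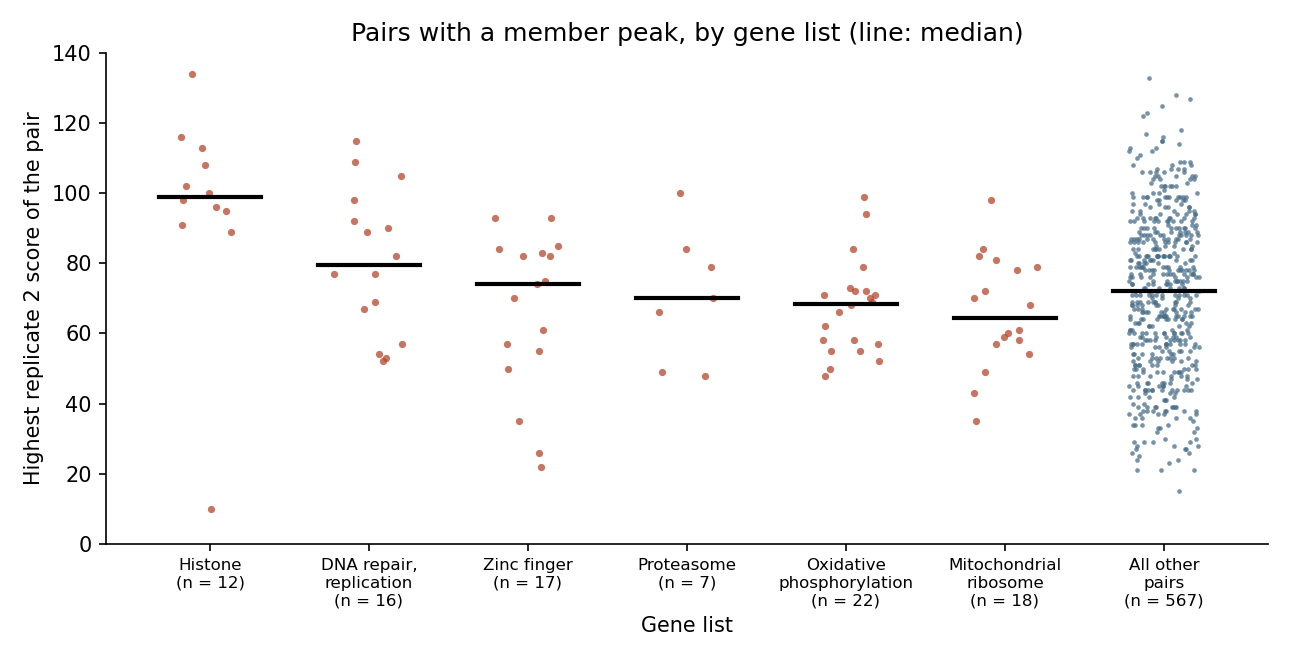
Highest replicate 2 score of each pair with a member (vertical, deposited score) by gene list (horizontal), with a line at the median and n pairs below each name; a pair in several lists is drawn in each. The histone median of 99.0 was the highest and the mitochondrial ribosome median of 64.5 the lowest of the lists drawn, and 1 histone pair lay at 10.

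The listed DNA repair and replication genes were often paired. The list was chosen with earlier results known and includes pairs of the literature list below, such as Atm/Npat and Brca1/Nbr1. Its share therefore describes the list and not repair genes at large. Repair genes in pairs but not on the list include Xrcc3, whose pair Xrcc3/Zfyve21 scored 96 in replicate 2, and Rad51c, whose pair Rad51c/Tex14 had no member. Of 57 listed genes 18 (31.6%) lay in 17 pairs, against 6.96% of all genes, and 16 of the 17 pairs had a member (94.1%, near the 89.4% of all pairs). Their highest replicate 2 scores ran from 52.0 to 115, with a median of 79.5. Aimp2/Pms2, with a mismatch repair gene, scored 98 in replicate 2 and 150 in replicate 1, at a peak 5.5 bp from the midpoint. Double-strand break signalling and repair were represented by Atm/Npat, which joins a checkpoint kinase with a coactivator of histone genes, at 109 and 149, and Hscb/Chek2 at 105 and 150. Palb2/Dctn5, with the gene of a protein that links BRCA1 to BRCA2, scored 92 and 141, and Brca1/Nbr1 scored 89 and 146 at a peak 16 bp from the Brca1 start, with a lower peak of 59 and 138 inside Nbr1.

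The remaining pairs of this list covered the lower range. Wrap53/Trp53, with the p53 gene, scored 82 and 144, Prpf38a/Orc1, with an origin recognition gene, 77 and 148, and Lig4/Abhd13, with a DNA ligase gene, 77 and 132. Rpa1/Smyd4, with a single-strand DNA binding subunit, scored 69 and 146, and Abhd12/Gins1, with a replication helicase subunit, 67 and 140. The lowest were Wrn/Purg (the Werner helicase) at 57 and 136, Xpc/Lsm3 (nucleotide excision repair) at 54 and 138, Pxmp2/Pole (DNA polymerase epsilon) at 53 and 132 and Emc3/Fancd2 (crosslink repair) at 52 and 145. Pinlyp/Xrcc1, with a single-strand break repair gene, had no member. A shared peak scoring 102 in replicate 2 lay 742 bp from the nearer annotated start of that pair, outside the window.

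Mitochondrial genes were also often paired, with scores and shares near those of all pairs. Of 78 mitochondrial ribosomal protein genes 18 (23.1%) lay in pairs, and all 18 pairs had a member, with a median highest score of 64.5. Mrps12/Sars2 led this list with 98 in replicate 2 and 149 in replicate 1, followed by Mrpl50/Zfp189 at 84 and 146 and Ncapd2/Mrpl51 at 82 and 143. Of 104 oxidative phosphorylation genes 23 (22.1%) lay in 23 pairs, 22 of which had a member, with a median of 68.5. Uqcrq/Gdf9 joins a respiratory complex III gene with an oocyte growth factor gene and scored 99 and 137. Ndufa2/Ik and Wdr4/Ndufv3, with complex I genes, scored 94 and 148 and 84 and 139. Of 49 proteasome genes 7 lay in pairs (14.3%, Wilson 95% interval 7.10 to 26.7%), a small number beside the 6.96% of all genes. All 7 proteasome pairs had a member, with a median of 70.0, and Psmb1/Tbp, with the TATA-binding protein gene, scored 84 and 148.

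Zinc finger genes were in pairs at a share near that of all genes. Of 388 zinc finger genes 21 lay in pairs (5.41%, 3.57 to 8.13%, which includes the 6.96% of all genes), and 17 of their 19 pairs had a member, with a median of 74. Zfp142/Bcs1l scored 93 in replicate 2, as did Zfp654/Cggbp1, and both scored 146 in replicate 1. Of 50 erythroid genes on these chromosomes Urod was the only one in a pair (2.00%, 0.354 to 10.5%), a share whose interval also includes that of all genes.

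Outside these lists, the highest-scoring pairs held genes of general use as well as genes of other tissues. Cep57/Fam76b, with a centrosome gene, had peaks of 133 and 125 in replicate 2, and Nop14/Grk4, with a ribosome assembly gene, scored 128. Cks1b/Shc1, with a cell cycle kinase subunit and a signalling adaptor, scored 127, and Rnf5/Agpat1, with a ubiquitin ligase and a lipid synthesis enzyme, had peaks of 125 and 104. Ccdc151/Prkcsh scored 123, Ccdc146/Fam185a 122 and Aasdhppt/Kbtbd3 118. All of these scored 149 or 150 in replicate 1. Tbc1d10b/Mylpf includes the fast skeletal muscle myosin light chain gene, and its peak of 117 in replicate 2 and 150 in replicate 1 was centred 101 bp inside Mylpf. Accessibility at a pair does not say which of its genes is transcribed.

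At the other end, pairs were ranked by their highest-scoring member. The lowest after the testis histone pair was Stap2/Mpnd, with 15 in replicate 2 and 42 in replicate 1, at a peak centred 180 bp outside the starts. Pcmt1/Lats1, a protein repair enzyme gene and a Hippo pathway kinase gene, scored 21 and 111, although it is CpG-rich and its peak was centred 4.0 bp from the midpoint. Nisch/Sema3g scored 21 and 114, and Klc3/Ckm, with the muscle creatine kinase gene, scored 21 and 115.

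A literature list of 18 divergent pairs was only partly covered by the rule. In the annotation 7 of them met it, 10 overlapped head to head, so that the starts faced past each other, and Brca2/Zar1l was 4466 bp apart. Of the 7 pairs 6 had a member: Atm/Npat, Brca1/Nbr1, Mcm4/Prkdc, Mrps12/Sars2 and Wrap53/Trp53 as given above, and Gart/Son, a purine synthesis gene and a splicing gene, with 65 in replicate 2 and 140 in replicate 1. Col4a4/Col4a3 had none, and the nearest shared peak lay 8718 bp away with a replicate 2 score of 10. This pair encodes basement membrane collagens and is on the list of other-tissue genes.

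The 78 pairs without a member were poorer in CpG around the midpoint. Their median observed over expected CpG was 0.633, against 0.862 for pairs with a member, and 26 were CpG-poor, while 39 were CpG-rich. At 57 of them neither list had a peak in the window, at 19 replicate 1 alone had one, and at 2 pairs, Dync2h1/Dcun1d5 among them, both lists had peaks that did not touch. Of the 78 windows, 70 had at least 90% of their 32 bp words once in the genome, beside 693 of the windows of all 734 pairs. The part of mappability in the missing members was not tested. At 13 pairs a shared peak lay within 1000 bp of a start, as at Xrcc1, and at 47 pairs none lay within 5000 bp.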

How the data were processed

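DNase-seq peaks and hotspots of MEL cells were used as deposited, on build mm10, per the labels. Per the deposited notes, the authors derived the replicate 1 regions from 1 alignment of its 2 libraries and the replicate 2 regions from 1 library. Not given in the sources used here are aligner, caller and read numbers. The deposited peak score is a whole number up to 150, and a −log10 q-value capped at 100 stands, by format convention, beside the authors' hotspots, which served as positions. Of peak lines with the same coordinates the highest-scoring was kept, which dropped 67 and 7 lines in replicates 1 and 2. Peaks are 150 bp wide.

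Gene starts came from the gene lines of GENCODE M21 basic and sequence from GRCm38. Single-gene peaks were found by the same 300 bp window and 1 bp overlap. CpG content used 300 bp and motifs 150 bp around peak centres, and uniqueness is the share of 32 bp words found once in the assembly without patches. Intervals are Wilson or log-ratio 95% intervals. Named pairs were the 10 highest and 5 lowest by replicate 2 score, 18 literature pairs, pairs of the erythroid, repair and other-tissue lists, up to 3 pairs of each family and the pair with the most peaks. Some pairs that this rule names are not reported here. Sequences between starts are printed in place of whole peaks, which reach into transcripts. The members and lists were chosen with earlier results of these data known. Code was tested on simulated data and run in Python 3.11.15 with pysam 0.24.0, pandas 2.3.3, numpy 2.4.6, matplotlib 3.10.9 and scipy 1.17.1. Other distances, windows, overlaps, single lists and peak subsets were tried as alternatives.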

Additional observations from a re-analysis of the deposited data

How the results depend on the processing

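Across the alternatives, 77 values of the main comparisons lay inside the 95% interval of the reported value and 24 lay outside it. No ratio to single-gene starts among these crossed 1, but the share of peaks centred between the starts crossed 50% without replicate 2. The share of pairs with a shared peak was 86.5% with a 150 bp window, 86.1% with 75 bp of overlap and 85.7% with the higher-scoring 50% of replicate 2, and ranged from 89.6% to 92.2% without 1 replicate. Its ratio to single-gene starts was 2.78 with a 150 bp and 2.31 with a 500 bp window, 2.66 with the higher-scoring 50%, 2.60 with single starts free of any annotated neighbour and 2.21 for promoters at least 90% unique, and ranged from 2.06 to 2.42 without 1 replicate. With the highest-scoring peak of each promoter alone, 65% of members lay above the single-start median of replicate 2 scores, 65.2% above that of CpG content, and 64.6% were centred between the starts. The share above the replicate 1 median was 63.3% with a 150 bp window and 65.8% without replicate 2. The share above the median CpG content was 65.7% and 57.0% at pair distances of 500 and 2000 bp, ranging from 60.0% to 64.6% without 1 replicate. Hotspots covered both starts at 83.8% and 69.2% of pairs at those distances, and at 88.0% without replicate 2. Peaks centred between the starts made up 62.8% at 2000 bp, 68.9% with a 150 bp and 50.4% with a 500 bp window, and 48.8% to 56.8% without 1 replicate. The ETS ratio lay inside its interval under all settings, between 1.28 and 1.54. For 14 other motifs 219 values lay inside the interval of the reported value. Under some settings the CCAAT, TATA and GATA intervals came to include 1 and the NRF1, ZNF143, KLF, CTCF and GC box intervals to exclude it, and the GATA ratio among CpG-rich peaks, 1.11, reversed. The causes were not tested. Omitting peaks written with a decimal point, and requiring 90% unique promoters, were chosen after seeing the data.

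No paired analysis was possible because each biological replicate has 1 list and no groups are compared. Replicate 2 scores have no value without replicate 2, nor replicate 1 scores without replicate 1. Unknown read depth, 1 list per replicate, scores compressed near 150 in replicate 1 and positions in 20 bp steps limit the precision.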

Other observations

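The pairs described here were chosen after their values were seen. Of all 734 pairs, 57 had a peak in neither list, and imprinted or meiotic pairs were not counted as groups. Among the 57 were 2 pairs with imprinted genes, of which 1 parental copy is normally silenced. These were Sgce/Peg10, a CpG-rich promoter whose nearest shared peak lay 13876 bp away with a replicate 2 score of 16, and Peg3/Usp29, whose nearest replicate 1 peak lay 41480 bp away. Gpc2/Stag3, with a meiotic cohesin gene, had its nearest shared peak 14111 bp away, and Smc1b/Ribc2, with another, 19533 bp away. Hspa1a/Hspa1l, a pair of heat shock protein family genes, had its nearest shared peak 9108 bp away, and 64.5% of the 32 bp words in its window occurred once in the genome.

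Some pairs without a member had strong peaks just outside the window, or peaks inside it that did not overlap. At Sirt1/Dnajc12 a shared peak scoring 99 in replicate 2 lay 368 bp from the nearer annotated start, and at Ndufa5/Asb15 one scoring 88 lay 362 bp away. Inside the window of Dync2h1/Dcun1d5 the lists placed peaks of 93 in replicate 2 and 146 in replicate 1, without overlap.

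Pairs outside the rule had lower shares than the 89.4% of the pairs within it. Of 436 pairs overlapping head to head 83.9% had a shared peak, with a median highest score of 69.0. Among them Ppat/Paics, a purine synthesis pair, scored 104, Hspd1/Hspe1, the mitochondrial chaperonin pair, scored 95, Mcm7/Ap4m1 scored 95, and Col4a1/Col4a2 had no peak. On chromosome X 13 of 20 pairs had a shared peak (65%), with a median highest score of 93.0.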
